A study of Homo sapiens with 12 samples.

Results

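Adherent HEK293 cells with a knockdown of EXT1 were compared with adherent wild-type HEK293 cells, 3 libraries against 3 of the 12 in the series, and 15991 of the 58735 genes in the deposited table had enough reads to be tested. HEK293 is a human embryonic kidney line used to make recombinant proteins and viral vectors. The sample titles gave the groups, and no measured value was used to choose them. Both lines had gone through 5 passages and grew attached in T75 flasks in DMEM with fetal bovine serum at 37 °C and 5% CO2, and both were trypsinized before RNA was taken and poly-A selected. The knockdown method is not in the labels, nor is it stated whether the knockdown line was 1 clone or a pool, whether the wild type carried a control construct, or whether the 3 libraries of a line came from separate cultures. The p-values are therefore measures of spread among the libraries alone, and that spread may be technical.

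EXT1 is a glycosyltransferase of the Golgi that works with EXT2 to polymerize heparan sulfate, a long sulfated sugar chain built on a xylose-containing linker on core proteins such as syndecans and glypicans. The chains bind growth factors, morphogens, matrix proteins and several viruses, and they act as a co-receptor that holds fibroblast growth factors on their receptors. Lower EXT1 shortens or removes the chains without removing the core proteins.

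The libraries held 13.9 to 21.4 M reads assigned to genes. The wild-type replicates were less alike than the knockdown replicates, with chi-square values per degree of freedom, from the counts of pairs, of 12.1 to 27.3 against 2.64 to 4.88. Markers of other cell types were measured beside the results. Of the 10 fibroblast markers, 6 stayed under 1 CPM (counts per M reads of the scaled library size) in every library, among them COL1A2, DCN, PDGFRB and FAP, and the summed level of the list was 19.5 to 22.6 CPM in wild type against 31.3 to 35.9 CPM in the knockdown, most of it COL1A1. Their part in the results was not tested. The 8 leukocyte markers summed to 1.79 to 2.33 and 0.93 to 2.08 CPM, the 6 endothelial markers to 1.85 to 3.44 and 2.29 to 3.72 CPM, and the 6 hepatocyte markers to 0.112 to 0.299 and 0.222 to 0.286 CPM, with SERPINA1 and AFP at 0. The neurofilament and neuronal markers that HEK293 cells are known for summed to 518 to 572 CPM in wild type against 595 to 619 CPM in the knockdown, of which UCHL1 and NEFL made up most, while STMN2 and TUBB3 stayed under 1 CPM.

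EXT1 itself (ENSG00000182197, chromosome 8, 117794490 to 118111853 on the minus strand, GRCh38) was at 52.5, 52.2 and 50.8 CPM in the wild-type libraries and at 12.2, 11.7 and 11.6 CPM in the knockdown libraries. The groups were far apart, and EXT1 was 4.38-fold lower in the knockdown (log2 fold change -2.13, SE 0.10, adjusted p = 7.13e-09). Adjusted p-values for genes are from edgeR's quasi-likelihood test on the counts of these 6 libraries with Benjamini-Hochberg adjustment over all 15991 genes, and a gene is said to have risen or fallen where that value was under 0.05.

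By this rule 3067 genes changed, which is 19.2% of those tested. Of these 1751 rose (10.9%) and 1316 fell (8.23%), and 482 changed at least 2-fold (3.01%), 266 up and 216 down. The median log2 change of all genes tested was -0.011. The 3 knockdown values lay wholly above or wholly below the 3 wild-type values for 5952 genes (37.2%), so that separation of the groups by itself was common. The count fell to 1487 without EXT1kd adherent replicate 1, to 2000 without its replicate 2, to 1612 without its replicate 3 and to 1924 without wild-type replicate 1, and it was 4222 without wild-type replicate 2 and 3949 without wild-type replicate 3.

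Whole chromosomes shifted together, and this touched the results that follow. Over genes with a mean of at least 5 CPM, the median log2 change was 0.28 on chromosome 9, 0.28 on chromosome 11, 0.26 on chromosome 3, 0.23 on chromosome 4, 0.20 on chromosome 18, 0.15 on chromosomes 13 and 8 and 0.11 on chromosome 17. It was -0.13 on chromosomes X, 5 and 19, -0.12 on chromosome 15 and -0.11 on chromosomes 12 and 2. On chromosome 9 the 464 genes had medians of 0.29, 0.30 and 0.29 in the 3 knockdown libraries relative to the wild-type mean, and 90.5% of them lay above 0. The knockdown medians lay outside the range of the wild-type libraries on each of the 8 chromosomes with a median of at least 0.1, at an exact two-sided permutation p of 0.1, the smallest that 3 against 3 allows. On chromosome 19 the wild-type libraries themselves ran from -0.17 to 0.13 and the groups overlapped (exact p = 0.4). DNA copy number was not measured here, and what shifted these chromosomes was not tested.

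**Figure D1:**
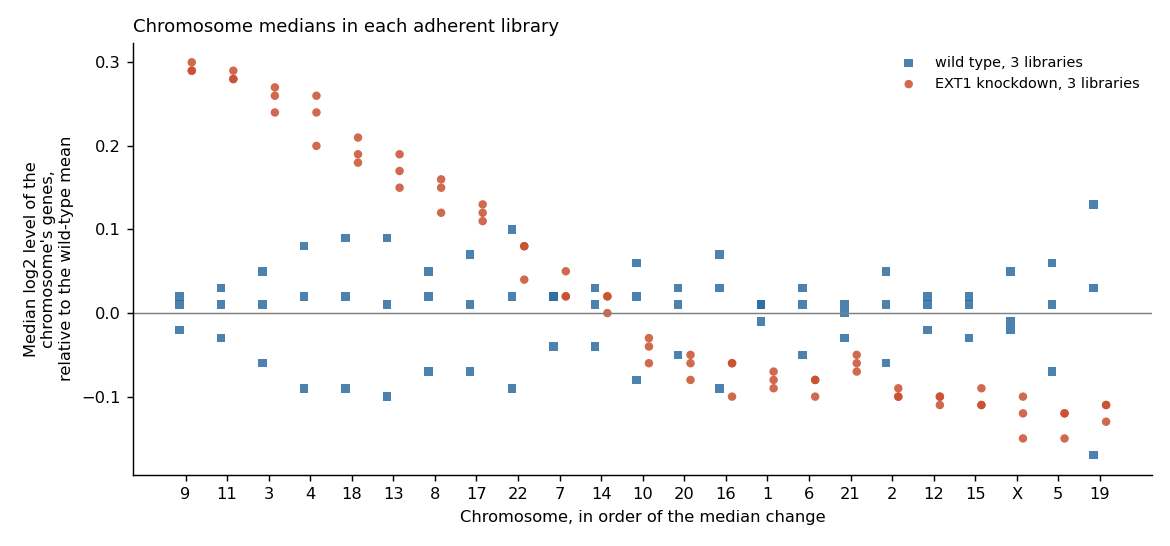
Median log2 level of the genes of each chromosome (genes with a mean of at least 5 CPM) in each of the 6 adherent libraries, relative to the mean of the wild-type libraries. Squares are wild-type and circles knockdown libraries. The 3 knockdown libraries sit together near 0.3 on chromosomes 9 and 11 and clear of the wild type, whereas on chromosome 19 the wild-type libraries spread from -0.17 to 0.13.

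The shift ran along whole chromosomes in windows of 40 neighbouring genes. All 11 windows of chromosome 9, all 15 of chromosome 11, all 15 of chromosome 3, all 10 of chromosome 4, all 5 of chromosome 13 and all 4 of chromosome 18 had a median above 0.1. Chromosome 8 was different. Its first 8 windows, from FBXO25 to MYC, had medians of 0.15 to 0.25, and the last window, of 75 genes from PVT1 to C8orf33 (127794533 to 145066685), had a median of -0.185. EXT1 lies in the eighth window, on the raised side of that step, so its fall ran against its neighbours. Chromosome 10 also changed along its length, from 0.05 to 0.11 in its first 3 windows to -0.11 to -0.13 in its last 5.

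**Figure D2:**
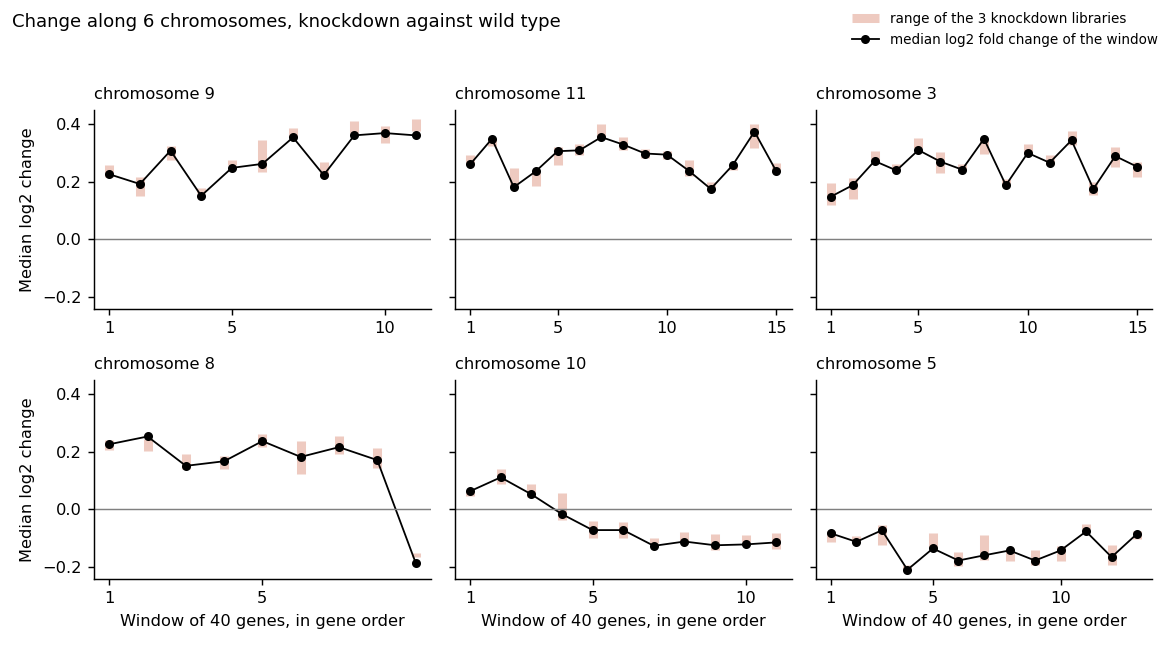
Median log2 change, knockdown against wild type, in windows of 40 neighbouring genes along 6 chromosomes. The last window of each chromosome also holds the remaining genes. Points are window medians and bars span the 3 knockdown libraries. Chromosomes 9, 11 and 3 lie above 0 throughout, chromosome 5 lies below 0, chromosome 8 drops from 0.17 to -0.185 in its last window and chromosome 10 crosses 0.

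Of the 1751 genes that rose, 1233 (70.4%) lay on the 8 raised chromosomes, which held 31.3% of the genes tested and 8.28% of the genes that fell. When each chromosome's median was taken out as an offset, 1830 genes passed (11.4%), 985 higher (6.16%) and 845 lower (5.28%). Of these, 1479 had also passed without the offset, all with the same sign, and 1588 calls were lost. Large changes were less touched: 410 of the 482 genes changed at least 2-fold kept their call and direction. Genes picked for a change near their chromosome's median show what the offset does, such as the ER chaperone HSPA5 on chromosome 9 (log2 0.29, adjusted p = 0.0339), the flap endonuclease FEN1 on chromosome 11 (0.28, adjusted p = 0.0453), and the translation initiation factor EIF4G1 (0.26, adjusted p = 0.0277) and proteasome subunit PSMD2 (0.26, adjusted p = 0.0386) on chromosome 3. With the medians out they were at 0.01, 0.01, 0.00 and 0.00, as that choice fixed. A value "without the chromosome shift" below is from that fit.

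Genes that build and trim heparan sulfate went both ways. Of 23 tested heparan sulfate enzymes, EXT1 included, 5 rose, 5 fell and 13 did not pass, with a median of -0.06. Without EXT1kd adherent replicate 1 or 3 2 falls passed, and 3 passed without EXT1kd adherent replicate 2 or wild-type replicate 1. SULF2, the extracellular sulfatase that removes sulfate from finished chains, was at 84.3, 88.4 and 76.2 CPM in wild type against 45.8, 50.1 and 44.7 CPM in the knockdown (log2 -0.82, SE 0.10, adjusted p = 4.18e-05). The partner EXT2 (0.50, adjusted p = 0.000969) on chromosome 11 lost its call without the chromosome shift (0.22, adjusted p = 0.104), while the related transferase EXTL3 stayed at 0.36 (adjusted p = 0.0139). NDST4, which deacetylates and sulfates the chain, rose from 1.56 to 2.68 CPM in wild type to 4.34 to 4.51 CPM (1.02, SE 0.23, adjusted p = 0.00632). HS3ST5, a sulfotransferase of the last modification step, was at 0.80 (adjusted p = 0.0336), a call lost without EXT1kd adherent replicate 2 (adjusted p = 0.071) or 3 (adjusted p = 0.221) and without wild-type replicate 1 (adjusted p = 0.0994) or 3 (adjusted p = 0.0565).

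Earlier in the pathway, XYLT1, the xylosyltransferase that starts the linker on the core protein, was at 19.0, 20 and 21.1 CPM in wild type against 6.13, 5.22 and 5.45 CPM in the knockdown. The groups did not overlap, and XYLT1 fell by 1.83 on the log2 scale (SE 0.13, adjusted p = 4.53e-07). Core proteins were mixed as well: of 23 tested, 5 rose and 3 fell (1 fell without EXT1kd adherent replicate 3). The basement membrane proteoglycan AGRN rose from 134, 111 and 170 CPM to 215, 225 and 242 CPM (0.72, adjusted p = 0.00104), the small leucine-rich proteoglycan LUM rose from at most 0.718 CPM to 2.92, 2.79 and 3.95 CPM (2.35, SE 0.29, adjusted p = 7.66e-05), and the testican SPOCK3 rose on 13 wild-type and 73 knockdown reads (2.63, SE 0.41, adjusted p = 0.000594). The glypican GPC3 fell (-0.45), and the syndecan SDC1 was at 0.08 (adjusted p = 0.743) with overlapping groups.

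The rises described here are the largest among protein-coding genes with a mean of at least 5 CPM. FUT9, the fucosyltransferase that completes the Lewis X epitope, was at 2.21, 1.90 and 1.60 CPM in wild type against at 13.7, 14.7 and 14 CPM in the knockdown (log2 2.90, SE 0.17, adjusted p = 4.88e-08). B3GALNT1, which makes the glycolipid globoside, was at 1.20, 1.34 and 1.37 CPM against 10.2, 8.37 and 9.89 CPM (2.86, SE 0.19, adjusted p = 2.31e-07). Neither gene's groups came near each other. PKP3, a desmosomal plaque protein, was at 9.15, 7.20 and 10.7 CPM in wild type against 31.0, 29.5 and 27.8 CPM in the knockdown (1.70, SE 0.14, adjusted p = 1.6e-06). CR2, the receptor for complement fragment C3d, was at 10.1, 11.2 and 8.62 CPM against 32.8, 29.8 and 32.7 CPM (1.68, SE 0.12, adjusted p = 5.68e-07). IL12RB2, a subunit of the interleukin-12 receptor, was at 1.20 to 2.40 CPM against 6.56 to 9.44 CPM (2.10, SE 0.24, adjusted p = 3.57e-05). The other rises among the 15 largest were CSRP1, FLNC, SERPINB9, EMILIN2, PARP14, DTX3L, PLIN2, RIN3, PUDP and ANXA3, at 1.57 to 2.87, several of which are described with their groups below. All 15 passed with the chromosome shift taken out.

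The 15 largest falls under the same floor had EXT1 among them. MID1IP1, a regulator of lipid synthesis, was at 17.6, 17.2 and 16.8 CPM in wild type against 3.54, 2.36 and 3.34 CPM in the knockdown (-2.47, SE 0.16, adjusted p = 1.77e-07). The cadherin CDH11 was at 13.2, 13.2 and 12.5 CPM against 3.60, 2.57 and 3.61 CPM (-1.97, SE 0.16, adjusted p = 1.68e-06), and CDH4 at 9.09, 8.21 and 9.38 CPM against 2.53, 2.22 and 2.78 CPM (-1.82, SE 0.18, adjusted p = 9.18e-06). Both are classical cadherins of mesenchymal or neural cells, whereas the related CDH2, N-cadherin, was at 0.20 and did not pass (adjusted p = 0.093). FGF13, an intracellular member of the FGF family, was at 22.5, 23 and 22.1 CPM against 7.64, 9.58 and 8.12 CPM (-1.42, SE 0.13, adjusted p = 3.79e-06). The fibrillin FBN1 (-1.39) and BEX1 (-1.41) fell with them. SULT1A1 (-2.21) has near-identical paralogs with which it can share reads.

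**Figure D3:**
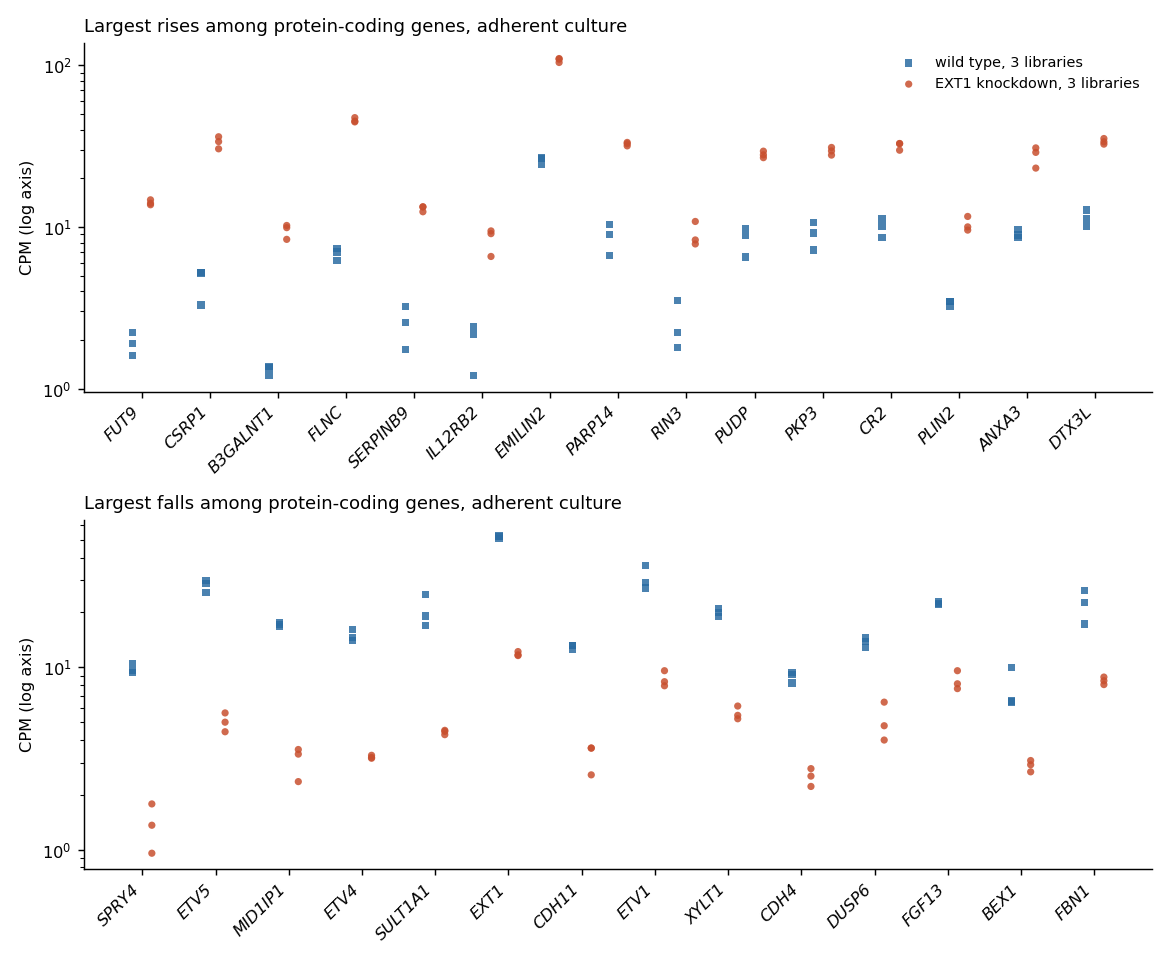
Levels in each adherent library of the 15 protein-coding genes with the largest rises (top) and falls (bottom) among those with a mean of at least 5 CPM, on a log axis. Squares are wild-type and circles knockdown libraries. No wild-type library reaches a knockdown library for any gene shown, because groups that do not overlap were part of the rule that chose them. A gene not reported here is left out.

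Part of the interferon-stimulated genes rose. These genes are switched on by the transcription factor complexes that interferons activate, and many encode antiviral enzymes. Of 52 tested members 22 rose, 0 fell and 30 did not pass, and the median log2 change was 0.30. The list's medians were 0.30 to 0.32 in the knockdown libraries and -0.02 to 0.07 in the wild-type libraries. Without the chromosome shift 16 rose and 0 fell, where 6.16% of all genes tested rose. With 1 library left out, 15 to 23 rose. A single fall passed with all 12 libraries in the fit, with limma-voom, with no filter or the stricter filter on low counts, and without wild-type replicate 2.

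ADP-ribosyltransferases of the PARP family were among the members that rose. PARP14, a mono-ADP-ribosyltransferase, was at 6.64, 10.3 and 8.95 CPM in wild type against 33.3, 31.7 and 32.7 CPM in the knockdown (log2 1.91, SE 0.14, adjusted p = 5.68e-07). Its neighbours DTX3L, a ubiquitin ligase, and PARP9, which binds DTX3L, rose with it. DTX3L was at 10.1, 12.7 and 11.2 CPM against 35.2, 32.5 and 33.6 CPM (1.57, SE 0.12, adjusted p = 5.68e-07), and PARP9 at 8.31, 9.21 and 8.72 CPM against 21.1, 19.2 and 20.4 CPM (1.21, SE 0.12, adjusted p = 1.26e-05). The 3 genes lie side by side on chromosome 3 (122527924 to 122730840), and without that chromosome's shift they were at 1.65, 1.32 and 0.95 and still passed. PARP12, another member of the family on chromosome 7, rose from 6.40, 6.98 and 7.12 CPM to 16.8, 19.3 and 20.2 CPM (1.46, SE 0.13, adjusted p = 4.85e-06).

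The nuclear body protein SP100 was at 1.67, 1.34 and 1.04 CPM in wild type against 4.95, 5.29 and 6.11 CPM in the knockdown (2.03, SE 0.23, adjusted p = 4.22e-05), and its relative SP110 rose by 0.80 (adjusted p = 0.00488). The helicase-like DDX60L was at 1.5, 1.62 and 1.74 CPM against 4.27, 6.01 and 5.00 CPM (1.64, SE 0.22, adjusted p = 0.000199). OAS3, which makes the messenger that activates RNase L, rose by 1.32 (SE 0.29, adjusted p = 0.00499) and the antiviral factor SAMD9 by 1.03 (SE 0.13, adjusted p = 0.000138). MX1 rested on 25 wild-type and 52 knockdown reads (1.21, adjusted p = 0.04).

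Several canonical members did not pass. ISG15 was at 4.07, 3.96 and 4.05 CPM in wild type against 4.27, 3.36 and 2.50 CPM in the knockdown (-0.25, adjusted p = 0.448). IFIT1 was at 4.31, 3.96 and 3.68 CPM against 3.03, 2.50 and 4 CPM (-0.31, adjusted p = 0.342). The class I light chain B2M was at 0.01 (SE 0.09, adjusted p = 0.974). For all 3 the groups overlapped.

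**Figure D4:**
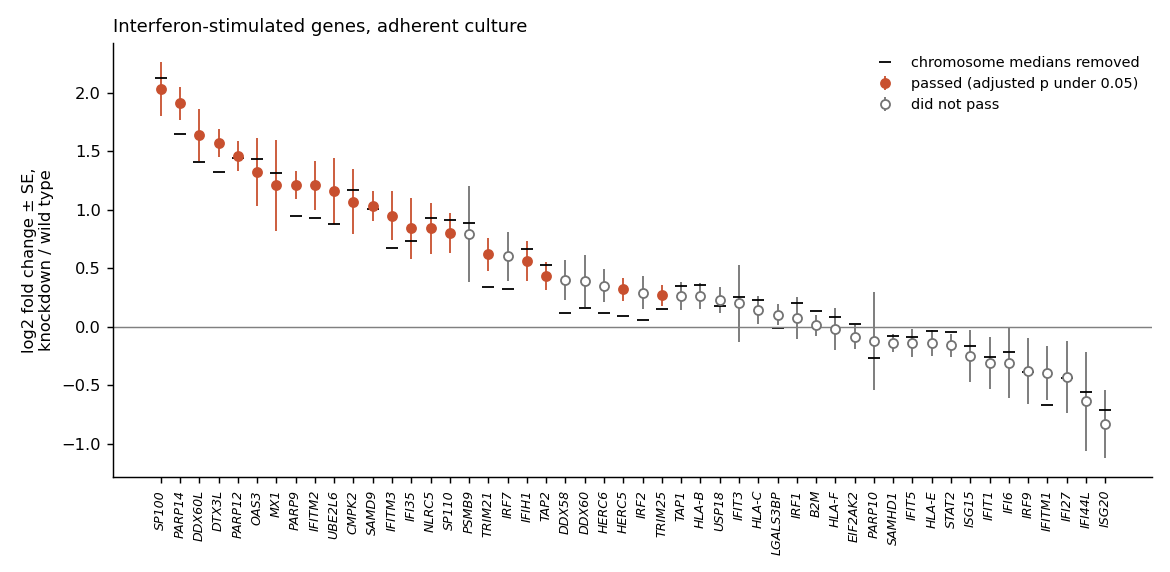
Log2 fold change, knockdown against wild type, of tested interferon-stimulated genes with standard errors. Members not reported here are left out. Filled points passed and open points did not, and black bars give the value with chromosome medians removed. SP100 and PARP14 lead at 2.03 and 1.91, while B2M, ISG15 and IFIT1 lie at 0.01, -0.25 and -0.31.

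The promoters of these genes are shown because members with and without a change carry the same kind of site. The interferon-stimulated response element was searched as GAAA, any 2 bases and GAAA again on both strands in the 300 bases from 250 before to 50 after each start (RefSeq, GRCh38.p14), where 42 of the 52 members had an entry. It was found in 27 of these 42 (64.3%) and in 996 of all 27305 promoters (3.65%). Of the 27 members with a match 12 rose, and of the 15 without one 7 rose. Each promoter is written 5′ to 3′ on the gene's own strand, with matches in capitals, so that a pair of TTTC in capitals marks a match on the other strand. PARP14, DTX3L, PARP12 and DDX60L rose, while ISG15 and IFIT1 did not pass.
PARP14, chr3:122680589-122680888, plus strand: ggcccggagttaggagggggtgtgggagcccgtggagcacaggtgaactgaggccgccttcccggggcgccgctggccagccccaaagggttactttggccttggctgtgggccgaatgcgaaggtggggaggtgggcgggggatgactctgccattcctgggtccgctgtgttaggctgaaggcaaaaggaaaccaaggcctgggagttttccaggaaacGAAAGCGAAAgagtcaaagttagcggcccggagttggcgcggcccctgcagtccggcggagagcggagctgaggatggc
DTX3L, chr3:122564088-122564387, plus strand: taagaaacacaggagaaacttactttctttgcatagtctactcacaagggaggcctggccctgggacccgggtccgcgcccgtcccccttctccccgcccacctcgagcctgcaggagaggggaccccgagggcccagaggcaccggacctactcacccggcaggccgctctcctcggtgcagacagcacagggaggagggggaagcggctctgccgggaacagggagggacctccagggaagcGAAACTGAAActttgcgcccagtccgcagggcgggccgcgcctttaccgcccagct
PARP12, chr7:140062902-140063201, minus strand: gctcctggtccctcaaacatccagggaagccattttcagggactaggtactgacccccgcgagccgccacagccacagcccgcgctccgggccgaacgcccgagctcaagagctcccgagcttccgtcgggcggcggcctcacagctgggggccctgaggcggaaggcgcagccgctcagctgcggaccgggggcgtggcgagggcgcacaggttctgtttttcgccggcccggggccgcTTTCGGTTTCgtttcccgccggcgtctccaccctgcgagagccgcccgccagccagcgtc
DDX60L, chr4:168480443-168480742, minus strand: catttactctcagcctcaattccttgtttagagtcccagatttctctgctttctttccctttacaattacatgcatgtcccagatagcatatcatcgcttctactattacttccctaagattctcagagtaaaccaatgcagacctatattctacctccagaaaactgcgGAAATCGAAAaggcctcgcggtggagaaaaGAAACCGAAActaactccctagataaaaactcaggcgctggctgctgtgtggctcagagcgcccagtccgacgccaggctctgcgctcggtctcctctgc
ISG15, chr1:1013247-1013546, plus strand: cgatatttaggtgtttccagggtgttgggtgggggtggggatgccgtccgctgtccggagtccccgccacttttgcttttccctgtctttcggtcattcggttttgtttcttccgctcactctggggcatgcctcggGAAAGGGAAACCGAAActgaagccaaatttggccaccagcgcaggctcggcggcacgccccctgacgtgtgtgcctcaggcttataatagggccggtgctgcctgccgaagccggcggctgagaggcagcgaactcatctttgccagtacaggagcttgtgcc
IFIT1, chr10:89392373-89392672, plus strand: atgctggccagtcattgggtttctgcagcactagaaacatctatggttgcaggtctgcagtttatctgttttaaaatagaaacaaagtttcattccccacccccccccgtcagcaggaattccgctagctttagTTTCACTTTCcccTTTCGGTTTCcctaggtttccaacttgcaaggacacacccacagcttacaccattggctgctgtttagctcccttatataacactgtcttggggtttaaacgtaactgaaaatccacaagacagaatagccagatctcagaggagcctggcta
The match begins 29 bases before the start in PARP14, 6 before it in DTX3L, 10 before it in PARP12 and 80 before it in DDX60L, and 113 before it in ISG15 and 116 before it in IFIT1. Position did not divide the members cleanly. The match begins 136 bases before the start in SAMD9, which rose, and 6 before it in EIF2AK2, which did not pass. In MX1 and TRIM21, which rose, it begins 11 and 17 bases after the start. Whether position went with a rise over the whole list was not tested. A match is a description of these letters and does not show that a factor bound there.

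Several sensors and adaptors of innate immunity changed, upward and downward. Of 48 tested members of the list of innate sensing and apoptosis inhibitors 12 rose and 7 fell, with a median of 0.03. Without the chromosome shift 7 rose and 5 fell, and 7 rose without any 1 of EXT1kd adherent replicates 1, 2 and 3 or wild-type replicate 1. IKBKE, a kinase that activates interferon regulatory factors, was at 0.538, 0.614 and 0.613 CPM in wild type against 3.99, 4.94 and 4.34 CPM in the knockdown (log2 2.89, SE 0.26, adjusted p = 4.85e-06). MYD88, the adaptor of most Toll-like receptors, was at 2.21, 2.29 and 1.74 CPM against 7.02, 7.65 and 8.62 CPM (1.90, SE 0.19, adjusted p = 1.35e-05). TLR3, a receptor for double-stranded RNA, was at 0.658, 0.391 and 0.188 CPM against 1.85, 1.93 and 1.95 CPM (2.24, SE 0.38, adjusted p = 0.0011), and its adaptor TICAM1 rose by 0.92 (adjusted p = 0.01). The groups of all 4 were apart, though at low levels. Against them TMEM173 (STING, the adaptor of cytosolic DNA sensing) fell from 19.0, 15.1 and 22.6 CPM to 10.3, 11.7 and 10.5 CPM (-0.81, adjusted p = 0.00177), and the apoptosis inhibitor BCL2 from 33.6, 37.7 and 37.2 CPM to 17.4, 21 and 17.9 CPM (-0.95, SE 0.11, adjusted p = 4.98e-05).

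Inhibitors of intracellular proteases rose beside them. SERPINB9, which blocks granzyme B, was at 3.23, 2.57 and 1.74 CPM in wild type against 13.3, 12.4 and 13.3 CPM in the knockdown (2.39, SE 0.19, adjusted p = 1.47e-06). SERPINB1, its neighbour on chromosome 6 and an inhibitor of neutrophil proteases, was at 10.5, 10.8 and 10.8 CPM against 22.1, 22.8 and 23 CPM (1.08, SE 0.11, adjusted p = 1.78e-05). Of 9 tested serpins 4 rose and 1 fell, and 2 rose without any 1 of EXT1kd adherent replicates 1, 2 and 3 or wild-type replicate 1.

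Many basement membrane and matrix glycoprotein genes rose. Of 37 tested members 18 rose and 3 fell, with a median of 0.30, and 17 rose and 2 fell without the chromosome shift. Laminins are trimers of alpha, beta and gamma chains that organize basement membranes, and chains of all 3 kinds rose. LAMA1 was at 30.3, 38.7 and 32.5 CPM in wild type against 98.6, 97.3 and 94.9 CPM in the knockdown (log2 1.52, SE 0.10, adjusted p = 2.31e-07). LAMA2 (1.57, adjusted p = 0.000491) and LAMA3 (1.09) rose from low levels, and the abundant LAMB1 and LAMC1 by 0.30 and 0.31. LAMC1 lost its call without EXT1kd adherent replicate 1 (adjusted p = 0.102) or 3 (adjusted p = 0.0768) and without wild-type replicate 1 (adjusted p = 0.0829). LAMA4 fell from 80.0, 102 and 80.5 CPM to 46.8, 46.0 and 41.3 CPM (-0.97, SE 0.11, adjusted p = 3.42e-05).

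NID1, which links laminin to collagen IV, rose from 152, 164 and 165 CPM to 351, 313 and 337 CPM (1.06, SE 0.08, adjusted p = 1.17e-06). EMILIN2, an elastic fibre glycoprotein, was at 27.0, 26.6 and 24.4 CPM against 109, 104 and 110.0 CPM (2.05, SE 0.09, adjusted p = 3.6e-09). MFAP2, a microfibril protein, was at 18.1, 13.5 and 18.0 CPM against 39.1, 39.6 and 40.4 CPM (1.26, SE 0.12, adjusted p = 8.14e-06). Each of these 3 was clear of its wild-type range, while FBN1, the fibrillin that MFAP2 binds, went from 17.3, 26.3 and 22.6 CPM down to 8.04, 8.44 and 8.84 CPM. Of 27 collagens 4 rose and 4 fell, and 5 rose and 2 fell without the chromosome shift. The counts of the fit with the shift were 2 up without any 1 of EXT1kd adherent replicates 1, 2 and 3 or wild-type replicate 1 and 7 up without wild-type replicate 3, and 1 or 2 down without any 1 of the former 4. Among enzymes that cut or cross-link matrix, LOXL2 (1.17, adjusted p = 0.00025) and ADAM12 (1.13, adjusted p = 0.000147) rose and ADAM8 fell (-1.20, adjusted p = 0.0055).

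Receptors for this matrix and the actin genes downstream of adhesion also moved. Of 18 integrin subunits 6 rose and 1 fell, with a median of 0.17 and the same counts without the chromosome shift. The count of rises was 3 without EXT1kd adherent replicate 2 or 3. ITGA3, a subunit of laminin receptors, went from 9.99, 8.93 and 10.7 CPM to 16.6, 16.6 and 17.3 CPM (0.76, SE 0.12, adjusted p = 0.000787), and ITGAV, a subunit of vitronectin receptors, from 157, 152 and 138 CPM to 215, 193 and 210.0 CPM (0.47, SE 0.09, adjusted p = 0.00198). ITGA8, a subunit of the nephronectin receptor, fell from 31.9, 31.0 and 29.0 CPM to 15.8, 15.2 and 17.2 CPM (-0.93, SE 0.11, adjusted p = 4.68e-05). All 3 had groups apart, ITGA8 in the opposite direction.

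Of 36 targets of the serum response factor (SRF) and its actin-sensing coactivators (MRTF) 13 rose and 2 fell, with a median of 0.20, and 10 rose and 0 fell without the chromosome shift. Without EXT1kd adherent replicate 1 or 3, 7 rose and 0 fell. Also 0 fell without wild-type replicate 1, 1 without EXT1kd adherent replicate 2, and 4 or 5 without wild-type replicate 2 or 3. The LIM protein CSRP1 was at 5.20, 3.29 and 5.18 CPM in wild type against 36.1, 33.7 and 30.4 CPM in the knockdown (2.87, SE 0.16, adjusted p = 2.81e-08). The actin cross-linker FLNC was at 7, 6.20 and 7.35 CPM against 47.4, 45.1 and 44.6 CPM (2.74, SE 0.12, adjusted p = 2.82e-09), and the much more abundant FLNA at 934, 962 and 1140.0 CPM against 1470.0, 1350.0 and 1550.0 CPM (0.53, SE 0.09, adjusted p = 0.00128). CSRP1 and FLNC stood out from the other 11 members that rose, which lay at 0.24 to 1.5. ACTA2, smooth muscle actin, was at -0.72 and did not pass (adjusted p = 0.117).

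Of 24 targets of the mechanosensitive coactivators YAP and TAZ 10 rose and 1 fell, with a median of 0.26, and 7 rose without the chromosome shift. Without EXT1kd adherent replicate 1 only 5 rose, and 6 without its replicate 3, with 0 falls in either case. The 2 canonical targets named CTGF and CYR61 in the deposited table were at 9.33, 8.65 and 7.82 CPM against 12.6, 12.5 and 12 CPM (0.53, SE 0.13, adjusted p = 0.0116) and at 17.6, 13.7 and 14.5 CPM against 19.7, 19.7 and 21.3 CPM (0.41, adjusted p = 0.031). CTGF lost its call without EXT1kd adherent replicate 1 (adjusted p = 0.0648). ANKRD1, a nuclear ankyrin-repeat protein, rose by 1.34 (SE 0.25, adjusted p = 0.00206) from a low level.

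Some epithelial markers were higher. EPCAM, an epithelial adhesion molecule, was at 65.5, 64.1 and 59.5 CPM in wild type against 124, 129 and 128 CPM in the knockdown, and KRT19, a keratin, at 28.6, 26.2 and 33.2 CPM against 66.0, 58.1 and 64.2 CPM. The 9 markers summed to 361 to 430.0 CPM against 543 to 555 CPM. Of the 7 tested 3 rose and 0 fell, which is 42.9% called against 19.2% of all genes. The rises numbered 2 without any 1 of EXT1kd adherent replicates 1, 2 and 3 or wild-type replicate 1. They numbered 4 without wild-type replicate 3. The call of the cadherin CDH1 was lost with DESeq2 (its test, adjusted p = 0.063). It was also lost without any 1 of EXT1kd adherent replicates 1, 2 and 3 or wild-type replicate 1 (adjusted p = 0.11 to 0.172). KRT8, the most abundant keratin of the list, was at 210, 187 and 248 CPM in wild type against 264, 267 and 256 CPM in the knockdown. The keratin KRT18 was at 88.6, 77.1 and 83.2 CPM against 84.9, 92.6 and 85.8 CPM, with overlapping groups, and the claudin CLDN4 was at 0.614 to 0.707 CPM against 0.393 to 0.611 CPM, while KRT7 had almost no reads and ELF3 stayed under 1 CPM. In bulk RNA more cells of a kind and more RNA per cell cannot be told apart.

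**Figure D5:**
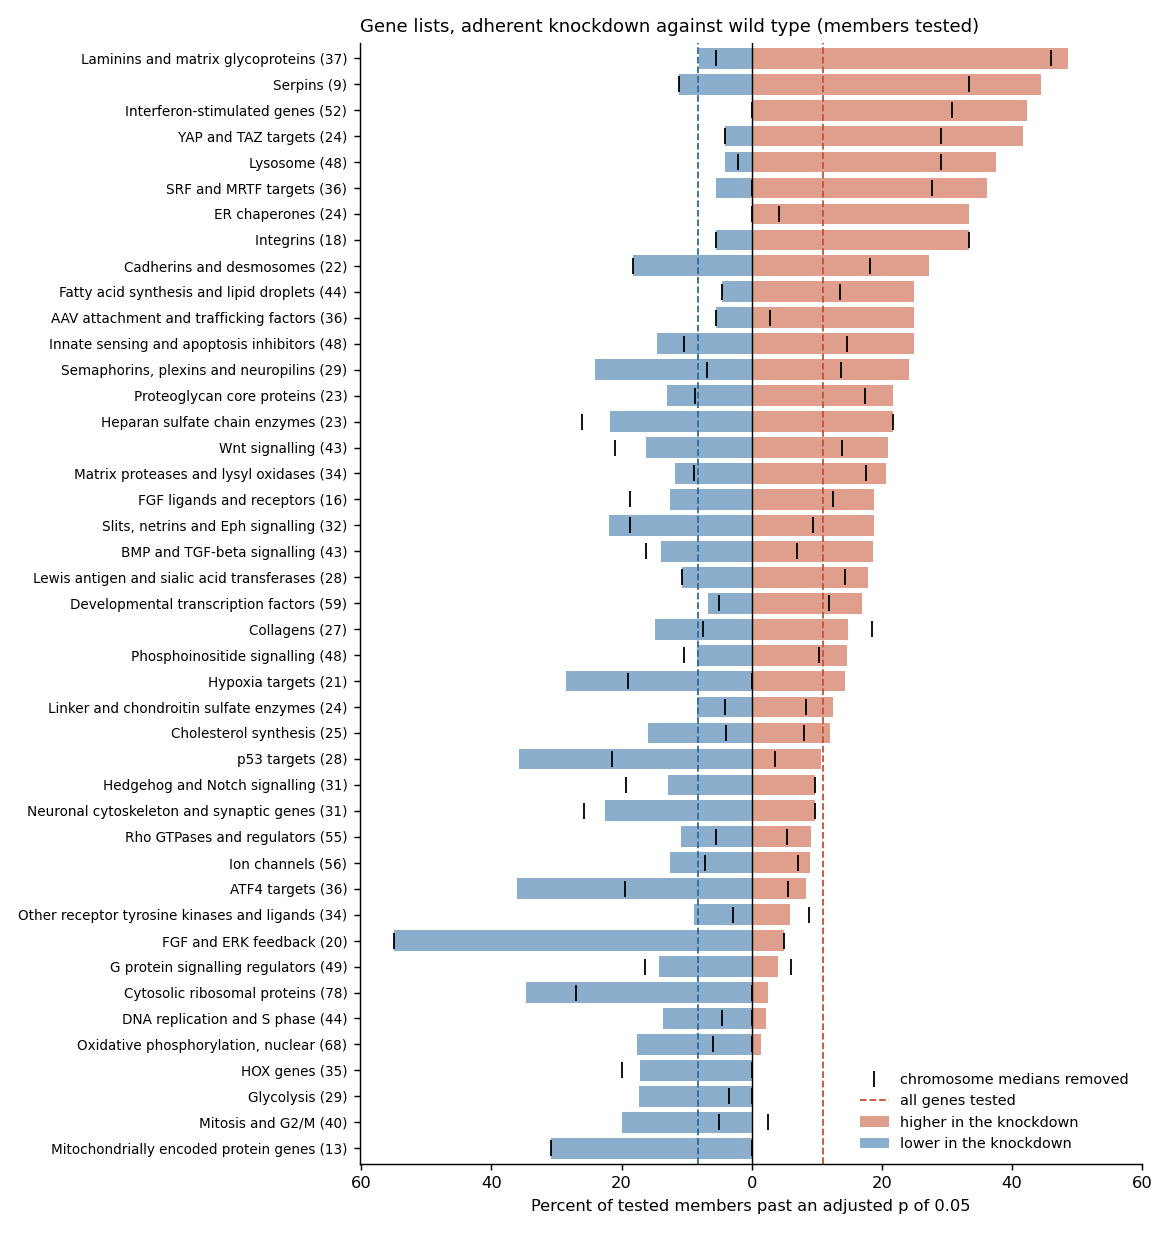
Percent of the tested members of each gene list that were higher (right) or lower (left) in the knockdown at an adjusted p under 0.05, with the number tested in brackets. Black ticks give the same with chromosome medians removed, and dashed lines mark all genes tested (10.9% higher and 8.23% lower). Matrix glycoproteins, serpins, interferon-stimulated genes, YAP and TAZ targets, lysosome genes and SRF and MRTF targets are among the lists far to the right of the dashed line. The FGF and ERK feedback list reaches farthest to the left.

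Part of the lysosome list and of the lipid list changed. Of 48 tested lysosomal genes 18 rose and 2 fell, with a median of 0.24, and 14 rose and 1 fell without the chromosome shift. CTSZ, a lysosomal carboxypeptidase, was at 25.7, 22.9 and 21.2 CPM in wild type against 67.6, 69.2 and 65.1 CPM in the knockdown (log2 1.54, SE 0.10, adjusted p = 2.2e-07). The acid sphingomyelinase SMPD1 rose from 11.5, 7.54 and 9.09 CPM to 17.2, 17.0 and 17.3 CPM (0.88, SE 0.15, adjusted p = 0.000967). Both kept their call without the chromosome shift. The alpha-galactosidase GLA fell (-0.57), and 1 fall passed without any 1 of EXT1kd adherent replicates 1 and 2 and wild-type replicates 1 and 3.

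Of 44 genes of fatty acid synthesis and lipid droplets 11 rose and 2 fell, with a median of 0.06, and 6 rose without the chromosome shift. There was 1 fall without EXT1kd adherent replicate 2 or 3 or wild-type replicate 1, and 6 falls without wild-type replicate 3. PLIN2, a coat protein of lipid droplets, was at 3.47, 3.46 and 3.20 CPM in wild type against 9.55, 11.6 and 10 CPM in the knockdown (1.62, SE 0.16, adjusted p = 1.27e-05). The lipase LIPE was at 2.33, 1.95 and 3.58 CPM against 7.31, 7.72 and 7.78 CPM (1.52, SE 0.21, adjusted p = 0.000244). Both had groups well apart. The desaturase FADS2 rose from 52.6, 55.4 and 64.1 CPM to 109, 108 and 111 CPM (0.93, SE 0.09, adjusted p = 1.41e-05), and its neighbours FADS1 and FADS3 by 0.67 and 0.83, all on chromosome 11. Without that chromosome's shift they were at 0.65, 0.39 and 0.55. FASN, fatty acid synthase, was at 0.16 (adjusted p = 0.354) with overlapping groups.

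Among enzymes that cap glycans, sialyl- and galactosyltransferases changed in both directions. ST3GAL1, which adds sialic acid to O-linked glycans, was at 31.9, 34.0 and 31.0 CPM in wild type against 10.9, 13.2 and 13.2 CPM in the knockdown (-1.38, SE 0.12, adjusted p = 2.18e-06). B3GALT5, a galactosyltransferase of type 1 chains, was at 0.658, 0.893 and 0.895 CPM against 2.08, 2.36 and 2.95 CPM (1.58, SE 0.29, adjusted p = 0.00192). ST3GAL4 rose by 0.63 on chromosome 11 and lost its call without the shift (0.35, adjusted p = 0.148). Of 28 tested transferases of Lewis antigens and sialic acid 5 rose and 3 fell, and the rises numbered 3 without EXT1kd adherent replicate 1 or 2 or wild-type replicate 1 and 9 without wild-type replicate 3.

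Genes of morphogen pathways, many of whose ligands bind heparan sulfate, and genes of Notch signalling changed in both directions. Of 43 Wnt genes 9 rose and 7 fell, with 6 and 9 without the chromosome shift. The receptor FZD10 was at 4.84, 4.74 and 5.37 CPM in wild type against 1.18, 2.15 and 1.06 CPM in the knockdown (-1.80, SE 0.26, adjusted p = 0.000287), and the Wnt-induced inhibitors NKD1 and NKD2 fell by 0.73 and 0.77 on the log2 scale. DKK3, a secreted member of the Dickkopf family, rose by 1.64 (SE 0.33, adjusted p = 0.00329) and the ligand WNT11 by 1.16 (SE 0.23, adjusted p = 0.00256). Of 43 genes of bone morphogenetic protein and TGF-beta signalling 8 rose and 6 fell. Without the chromosome shift 3 rose and 7 fell, and 4 or 5 rose without EXT1kd adherent replicate 1 or 2 or wild-type replicate 1 and 3 fell without EXT1kd adherent replicate 1 or 3. The ligand TGFB1 rose from 23.1, 18.6 and 22.6 CPM to 42.5, 35.8 and 38.6 CPM (0.86, SE 0.12, adjusted p = 0.00017), whereas the target gene ID1 was at 0.18 and did not pass (adjusted p = 0.272). NOTCH1 (0.94, adjusted p = 1.36e-05) and its feedback target NRARP (1.03, adjusted p = 8.54e-06) rose on chromosome 9 and stayed at 0.66 and 0.74 without its shift, while the Notch ligand JAG1 fell from 74.9, 82.5 and 74.8 CPM to 46.8, 48.1 and 48.6 CPM (-0.69, SE 0.09, adjusted p = 0.000121).

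Guidance factors that bind heparan sulfate were likewise divided. SLIT2 was at 207, 246 and 211 CPM in wild type against 375, 367 and 365 CPM in the knockdown (0.74, SE 0.09, adjusted p = 4.92e-05; 0.51 without the shift of chromosome 4), while its relative SLIT3 fell from 2.23 to 2.63 CPM to 0.889 to 1.22 CPM (-1.24, adjusted p = 0.00553). The plexin receptor PLXNB1 rose from 14, 12.2 and 15.8 CPM to 31.1, 31.2 and 31.9 CPM (1.16, SE 0.12, adjusted p = 1.34e-05). The growth factor midkine, MDK, which binds heparan sulfate and the receptor phosphatase PTPRZ1, rose from 18.0, 15.9 and 24.2 CPM to 38.6, 44.0 and 41.4 CPM (1.09, SE 0.14, adjusted p = 9.87e-05), and PTPRZ1 itself from 3.11, 4.69 and 3.68 CPM to 8.43, 7.44 and 5.84 CPM (0.92, SE 0.20, adjusted p = 0.00531). None of these groups overlapped.

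Neuronal genes and regulators of G protein signalling included large falls. Of 31 neuronal cytoskeleton and synaptic genes 7 fell and 3 rose (1 without EXT1kd adherent replicate 3), and 8 fell without the chromosome shift. The vesicle fusion protein SNAP25 was at 3.35, 4.19 and 4.38 CPM in wild type against 1.52, 1.5 and 0.945 CPM in the knockdown (-1.60, SE 0.25, adjusted p = 0.000635). STMN3, a microtubule destabilizer of neurons, was at 33.7, 31.0 and 46.0 CPM against 17.1, 15.2 and 16.3 CPM (-1.18, SE 0.14, adjusted p = 5.09e-05), and the neuroendocrine transcription factor INSM1 at 9.39, 8.15 and 8.58 CPM against 3.32, 3.22 and 3.45 CPM (-1.38, SE 0.16, adjusted p = 5.12e-05). All 3 lie on chromosome 20, whose median was -0.06. Of 49 regulators of G protein signalling 7 fell and 2 rose (4 without wild-type replicate 3). That is 18.4% called, against 19.2% of all genes in either direction, of which 8.23% fell and 10.9% rose. Without the chromosome shift 8 fell and 3 rose, where 5.28% of all genes fell and 6.16% rose. GNAO1, the brain-enriched alpha subunit, fell from 7.72, 6.31 and 9.19 CPM to 1.46, 2.00 and 2.06 CPM (-2.08, SE 0.22, adjusted p = 1.63e-05) and RGS6 fell on 90 wild-type and 10 knockdown reads (-2.96, SE 0.43, adjusted p = 0.000348), while RGS3 rose from 1.97, 1.73 and 1.60 CPM to 6.29, 5.44 and 8.45 CPM (1.94, SE 0.22, adjusted p = 3.85e-05).

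A few transcription factors of development had large changes. The B-cell and midbrain factor PAX5 was at 1.67, 1.56 and 1.56 CPM against 0.450, 0.286 and 0.278 CPM (-2.20, SE 0.37, adjusted p = 0.000891). SOX11, a factor of neural progenitors at a higher level, rose from 36.6, 35.9 and 41.0 CPM to 74.6, 74.5 and 78.7 CPM (1.01, SE 0.09, adjusted p = 6.48e-06). Of 59 such factors 10 rose and 4 fell (2 without EXT1kd adherent replicate 1 or 3), which is 23.7% called against 19.2% of all genes. HOX genes, which set position along the body axis, had 6 falls and 0 rises in 35. That is 17.1% called, against 19.2% of all genes in either direction and 8.23% that fell. Without the chromosome shift 7 fell and 0 rose, where 5.28% of all genes fell. The falls numbered 4 without EXT1kd adherent replicate 1 or wild-type replicate 1. Without wild-type replicate 3, and with all 12 libraries in the fit, 1 HOX rise passed.

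Parts of the stress-response lists changed, more of them downward. Of 28 p53 targets 10 fell and 3 rose, with a median of -0.23, and 6 fell and 1 rose without the chromosome shift. The falls numbered 6 without EXT1kd adherent replicate 3, and 0 or 1 rose without any 1 of EXT1kd adherent replicates 1, 2 and 3 or wild-type replicate 1. MDM2, the ubiquitin ligase of p53, was at 168, 183 and 142 CPM in wild type against 109, 99.3 and 104 CPM in the knockdown (-0.65, SE 0.10, adjusted p = 0.000472), and the cell cycle inhibitor CDKN1A at 56.7, 52.2 and 74.6 CPM against 41.1, 43.5 and 39.1 CPM (-0.57, SE 0.12, adjusted p = 0.00488). The groups were apart for both. Of 36 targets of ATF4, the factor of the amino acid and unfolded protein response, 13 fell and 3 rose (5 without wild-type replicate 2), with a median of -0.19. The falls numbered 7 without the chromosome shift, 7 without EXT1kd adherent replicate 1 or 3 and 8 without EXT1kd adherent replicate 2 or wild-type replicate 1. The hormone STC2 fell from 65.3, 67.9 and 77.8 CPM to 43.1, 51.4 and 44.0 CPM (-0.61, SE 0.10, adjusted p = 0.00104). NUPR1 fell on 59 wild-type and 8 knockdown reads (-2.66, SE 0.54, adjusted p = 0.00333) and GDF15 on 44 and 7 (-2.43, SE 0.51, adjusted p = 0.0044).

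Counts for lists of housekeeping genes depended on single libraries. Of 78 cytosolic ribosomal protein genes 27 fell and 2 rose, with a median of -0.24, and 21 fell and 0 rose without the chromosome shift. The falls numbered 10 without EXT1kd adherent replicate 1, 9 without its replicate 3 and 50 without wild-type replicate 2, and the list's median in single wild-type libraries ran from -0.17 to 0.15, a wider span than the change, and overlapped the -0.32 to -0.15 of the knockdown libraries. The rises RPL7A and RPL26 lie on chromosomes 9 and 17, and 0 or 1 rose without any 1 of EXT1kd adherent replicates 1, 2 and 3 or wild-type replicates 1 and 3. Of 68 nuclear genes of oxidative phosphorylation 12 fell and 1 rose, which is 19.1% called, against 19.2% of all genes in either direction and 8.23% that fell. The falls numbered 4 without the chromosome shift, 3 without EXT1kd adherent replicate 1, 2 without its replicate 3, 6 without wild-type replicate 1 and 33 without wild-type replicate 2. Without EXT1kd adherent replicate 1, 2 or 3 or wild-type replicate 1, 0 rose, and 3 rose without wild-type replicate 3. Of 40 genes of mitosis 8 fell and 0 rose. The share called was near the 19.2% of all genes in either direction, while 8.23% of all genes fell. Without the chromosome shift 2 fell and 1 rose, where 5.28% of all genes fell and 6.16% rose. Mitosis falls numbered 2 without EXT1kd adherent replicate 1 or 3, 5 without its replicate 2 or wild-type replicate 1 and 17 without wild-type replicate 3, and 2 rose without wild-type replicate 2. The 8 ER chaperone genes that rose, of 24 tested, went down to 1 without the chromosome shift, and the 9 attachment and trafficking factors of adeno-associated virus that rose, of 36, also went down to 1. Chaperone rises numbered 2 without EXT1kd adherent replicate 1 or 3 and 4 without its replicate 2 or wild-type replicate 1, and virus factor rises numbered 4, 3 and 5 without EXT1kd adherent replicate 1 or 3 or wild-type replicate 1. What part the chromosome shifts had in these lists was not tested beyond these counts.

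Targets and feedback inhibitors of FGF and ERK signalling had 11 falls and 1 rise in 20 tested and the same counts without the chromosome shift. SPRY4, an inhibitor of receptor tyrosine kinase signalling, was at 9.39, 10.5 and 9.57 CPM in wild type against 0.955, 1.36 and 1.78 CPM in the knockdown (-2.84, SE 0.21, adjusted p = 5.86e-07). The ETS factors ETV5, ETV4 and ETV1 and the ERK phosphatase DUSP6 were at -2.48, -2.21, -1.85 and -1.45. IL17RD, another inhibitor of FGF signalling, went the other way, from 11.1, 10.9 and 9.47 CPM to 21.9, 19.5 and 20.3 CPM (0.97, SE 0.12, adjusted p = 9.65e-05), and it stayed at 0.72 without the shift of chromosome 3. The receptors FGFR1, FGFR4 and FGFRL1 rose by 0.37, 0.61 and 0.69, of which FGFR1 on chromosome 8 did not pass without the shift (0.23, adjusted p = 0.132).

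Some large changes came in neighbouring genes. Besides PARP9, DTX3L and PARP14, and SERPINB1 and SERPINB9, the pair PUDP and STS on chromosome X (7048920 to 7354810) rose together. PUDP, a nucleotide phosphatase, was at 9.81, 8.88 and 6.50 CPM in wild type against 27.9, 29.4 and 26.8 CPM in the knockdown (1.75, SE 0.14, adjusted p = 1.6e-06), and the steroid sulfatase STS at 6.64, 6.75 and 4.29 CPM against 16.5, 15.8 and 17.2 CPM (1.5, SE 0.16, adjusted p = 2.68e-05). RBM43 and NMI on chromosome 2, the latter an interferon-induced partner of STAT proteins, rose by 1.06 and 1.26. TLR3 rose with its neighbour FAM149A (1.14), and CBLN1 fell with ZNF423 (-2.31 and -1.33) on chromosome 16. In all, 14 runs of 2 or 3 neighbouring genes had every member changed at least 2-fold the same way. The strand setting of the counting is not given in the sources used here, so reads of overlapping genes in such runs cannot be told apart.

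Among non-coding genes and pseudogenes 220 of 2691 tested changed (8.18%), against 19.2% of all genes tested, these included. The shares were not matched for level, so they do not compare how strongly the kinds of gene responded. HOTAIR, a long non-coding RNA of the HOXC cluster, was at 11.1, 12.2 and 11.3 CPM in wild type against 4.72, 4.01 and 4.67 CPM in the knockdown (-1.36, SE 0.15, adjusted p = 2.68e-05), with the limit that it is antisense to HOXC11. TPTEP1, a pseudogene transcript, fell by 1.59 on the log2 scale (adjusted p = 2.02e-05). PURPL, a long non-coding RNA known as a target and regulator of p53, had the largest fold of all 482 genes changed at least 2-fold, from 4.31, 4.47 and 5.28 CPM to 0.0562, 0.0715 and 0.167 CPM (-5.45, SE 0.38, adjusted p = 2.9e-07). It rests on few knockdown reads and was chosen after its values were seen. The fall of the signal recognition particle RNA RN7SL2 (-3.90, SE 0.78, adjusted p = 0.00307), rested on unequal wild-type libraries at 62.5, 26.4 and 561 CPM against 16.4, 16.2 and 11.2 CPM, and near-identical copies can share its reads.

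The same knockdown in shaken suspension culture, in serum-free medium, differed for most of the largest changes. In a fit of all 12 libraries, 3577 of 17115 genes passed for knockdown against wild type in suspension (20.9%), and the 2 knockdown effects differed for 4114 (24.0%). Of the 15 largest rises in adherent culture 3 also rose in suspension (EMILIN2, CR2 and DTX3L), 7 fell and 5 did not pass, and the difference between cultures passed for all 15. Of the 15 largest falls 8 also fell, 1 rose and 6 did not pass, and the difference passed for 13. EXT1 fell by 1.80 on the log2 scale in suspension. The pair PUDP and STS was at -2.31 and -3.31 in suspension against 1.75 and 1.5 in adherent culture, MYD88 at -1.94 against 1.90, and CTSZ at -1.83 against 1.54. ETV5, SPRY4 and ETV4 were at 0.13, 0.01 and -0.06 in suspension and did not pass, whereas MID1IP1 and FGF13 fell in both cultures (-1.98 and -2.00 in suspension).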

How the data were processed

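Poly-A RNA of HEK293 cells was sequenced by the submitters. Per the submitters' processing notes, the tools were HISAT2 and featureCounts 1.5.0 and the build GRCh38. Neither the annotation release nor the strand setting is given in the sources used here. The authors deposited whole-number read counts per gene, which were the main input, and FPKM, used only for an alternative. The deposited FPKM equalled values computed from the counts and lengths times 0.986 to 1.03 per library.

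The 3 EXT1 knockdown and 3 wild-type adherent libraries were fitted with edgeR 4.0.16 (quasi-likelihood test, TMM scaling, filterByExpr, R 4.3.3) with no covariate. P-values were adjusted by the Benjamini-Hochberg method over 15991 genes, with a threshold of 0.05. Levels are CPM, counts per M reads of the TMM-scaled library size. A second fit took each chromosome's median log2 change as an offset. Counts were simulated for 3 against 3 libraries with the same spread in both groups and no chromosome shifts. In them 56% of 1.5-fold and 79% of 2-fold changes were recovered, with 6 false calls. The data differ in both respects, so recovery in them can differ. Alternatives used DESeq2 1.42.0, limma 3.58.1, other filters and scalings, a replicate block, all 12 libraries and each library left out. Precision is limited by 3 libraries a group and by depth, and counting error is included in the fit.

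The members and gene lists were chosen with earlier results of these data known. Genes named by rule were EXT1, the 15 largest rises and falls among protein-coding genes with a mean of at least 5 CPM and groups that do not overlap, up to 4 changed members of each list and its anchor gene, the 3 largest rises and falls among other biotypes, 12 genes nearest the medians of 4 chromosomes, and the 5 largest further changes each way with medians removed. A few genes that the rule names are not reported here. Other named genes were chosen after their values were seen. Lists were described by counts and medians, with no test of a list. Of 1758 listed symbols 1756 matched a gene of the table.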

Additional observations from a re-analysis of the deposited data

Results flagged for a closer look

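For 28 of the 30 genes with the largest changes in adherent culture, the knockdown effect differed between adherent and suspension culture in a fit of all 12 libraries (edgeR's quasi-likelihood test of the interaction, adjusted p from 4.76e-13 to 0.0379), where 24.0% of 17115 genes passed the same test. Values are the adherent minus the suspension log2 effect. Because the genes were picked for large adherent effects, large differences in that direction were favoured by the choice.

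Among the rises the difference was 4.86 for SERPINB9, 4.55 for B3GALNT1, 4.42 for PKP3, 4.31 for FUT9, 4.07 for PUDP and 4.05 for FLNC. It was 3.09 for CSRP1, 2.69 for RIN3, 2.51 for IL12RB2, 1.78 for PARP14, 1.55 for PLIN2, 1.47 for ANXA3, 1.17 for EMILIN2, 1.01 for DTX3L and 0.98 for CR2.

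Among the falls it was -3.29 for SULT1A1, -2.84 for SPRY4, -2.60 for ETV5, -2.15 for ETV4, -1.94 for ETV1, -1.26 for CDH11, -1.23 for DUSP6, -1.15 for CDH4, -0.96 for FBN1, -0.76 for XYLT1 and -0.47 for MID1IP1. FGF13 fell more in suspension, with a difference of 0.58.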

How the results depend on the processing

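The count of 3067 genes was 4633 with all 12 libraries in the fit, of which 2024 were lower, and 1830 with chromosome medians removed (985 higher and 845 lower). Leaving out 1 library gave 1487 to 4222 genes, 922 to 2280 higher and 565 to 1942 lower. The count of genes changed at least 2-fold was 315 on the log2(FPKM + 0.1) scale and 46 on the log2(FPKM + 1) scale, where the pseudocount shrinks the changes of low genes. With library totals in place of TMM, the medians of chromosomes 9 and 11 were 0.32 and 0.31 and the share of higher genes was 65.8% against 57.1%. Of 239 genes named by rule, none passed in the direction opposite to the reported one under any alternative, while several near 0 that did not pass changed sign. Calls were lost for 51 with chromosome medians removed, 12 with DESeq2, 11 with library totals, 43 and 45 on the FPKM scales, 4 with limma-voom, and between 4 and 60 with 1 library left out. Deviations from the group mean correlated at 0.0489, -0.113 and 0.14 between same-numbered libraries of the 2 groups. Between differently numbered ones they correlated at -0.233 to 0.2. Whether equal numbers mark a pairing was not tested, and the fit with the replicate block called 3082 genes. Only 3 libraries a group and 13.9 to 21.4 M reads limit what small changes, or genes near the floor of the filter, could show.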
